A study of Mus musculus with 6 samples.

Results

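Interferon-stimulated genes are switched on when interferons bind receptors at the cell surface. Here 41 of them are described in cells of mouse bone marrow sorted as megakaryocytes (MKs). They were taken by gene symbol from a list of 43 genes induced by type I and type II interferon, out of 16579 genes in the table. Mx1 and Mx2 were not analysed here. All 41 genes passed the filter on low counts, which kept 12256 genes. The list was drawn up with results of the genotype comparison in view, so differences between genotypes in these genes are given as descriptions. Where calls of the fit over all genes are counted for them, the share of all genes called stands beside the count and nothing is read from it.

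RNA was sequenced from cells that FACS had sorted as MKs out of marrow of mice aged 3 months. Of these mice, 3 were Becn1f/f and 3 were labelled Becn1f/f;Pf4-iCre. All 6 mice carried floxed alleles of Becn1, an autophagy gene. In the second genotype the recombinase iCre is driven by regulatory sequence of Pf4 (platelet factor 4), which is active in the MK lineage, and the control mice carried no iCre, so effects of iCre and of the deletion cannot be told apart. Becn1 itself was at 118 ± 9.37 CPM (counts relative to the TMM-scaled library size, SD, n = 3) in Becn1f/f mice and at 107 ± 2.74 CPM (SD, n = 3) in the others, which edgeR put at a log2 fold change of -0.15 (adjusted p = 0.94, standard error 0.12). The targeted gene thus gave no check of the labels. A gene total separates neither the floxed exons from the others nor MKs from other cells, and neither was tested here. The second group is called "the libraries labelled Becn1f/f;Pf4-iCre" below. A positive log2 fold change means a higher level in those libraries.

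Library totals lay between 16467560 and 17156728 estimated counts. Across genes, replicates of a genotype correlated at 0.98 to 0.99 on the log2 scale. No pair of replicates was the same library deposited again, since chi-square values divided by their degrees of freedom were 14.6 to 47.6. Of the markers of the sorted cell type, Itga2b (CD41) was at 45.8 to 62.0 FPKM (a level per transcript length), Pf4 at 7.88 to 24.1 and Gp9 at 1.36 to 2.65, and Gp6 did not pass the filter. Over 18 MK and platelet markers, mean levels ran from 0.275 FPKM to 519 FPKM (Thbs1), with a median of 2.08 FPKM. Over 10 monocyte markers they ran from 1.42 FPKM (Ace) to 7098 FPKM (Lyz2), with a median of 539 FPKM. Over 14 neutrophil markers they ran from 16.6 FPKM to 9482 FPKM (S100a8), with a median of 814 FPKM. Medians were 4.12 FPKM for macrophage, 6.61 for erythroid, 6.88 for B cell, 11.2 for plasmacytoid dendritic cell and 1.02 for T and NK cell markers. Medians of the monocyte and neutrophil markers thus lay above that of the MK and platelet markers. Without Thbs1, the other 17 MK and platelet markers summed to 578 to 836 CPM in a library. The 10 monocyte markers summed to 12755 to 20529 CPM and the 14 neutrophil markers to 9341 to 17138 CPM. The libraries therefore held much RNA of monocyte, neutrophil and other blood cell genes, and the share of MKs in them was not measured. In such bulk samples fewer cells of a type and less RNA per cell cannot be told apart. One library, Becn1f/f 1, stood apart from the others in the interferon-stimulated genes, and genotype differences are therefore given with and without it.

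Type I interferons act through the receptor Ifnar1/Ifnar2 and the kinases Jak1 and Tyk2, which activate a complex that holds Stat2 and Irf9. This complex binds the interferon-stimulated response element (ISRE) in the promoters of its targets, whereas interferon gamma acts on gamma-activated sites (GAS). The products block viral replication, sense foreign nucleic acid, attack vacuoles that hold pathogens and recruit lymphocytes. In bone marrow, interferon acts on hematopoietic stem cells and on the MK lineage, and blood cells at rest keep a low, tonic level of the response.

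Promoter windows of RefSeq, from 250 bases before to 50 bases after a start site on GRCm38.p6, were found for 33 of the 41 genes; Oas2, Gbp6, Gbp4, Ifi204, Parp14, Usp18, Dhx58 and Zbp1 were not matched. The letters GAAANNGAAA, read on either strand, were taken as the ISRE and the palindrome TTCNNNGAA as the GAS. An ISRE match was present in 21 of 33 genes (63.6%), against 3.98% of the 9879 tested genes with a window. A GAS match was present in 10 of 33 genes (30.3%), against 8.3% of the tested genes. Both were present in 7 genes and neither in 9, and the motifs overlapped each other in 1 window, that of Bst2. An ISRE match was held by 3 of 3 matched nucleic acid sensors, 4 of 4 guanylate-binding proteins, 3 of 4 IFIT genes, 3 of 4 immunity-related GTPases, 2 of 4 OAS genes and 3 of 9 other antiviral effectors. A match is a description of these letters and not of binding.

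The 250 bases before the start site are printed below for 5 of these genes, 1 each from the ISG15 system, the IFIT family, the sensors, the guanylate-binding proteins and the chemokines, taken from the genes that hold a match to show where it lies, with ISRE and GAS matches in capitals. Isg15 (chr4:156200819-156201068, minus strand) held 3 overlapping ISRE matches, which began 78, 72 and 66 bases before the start. Ifit3 (chr19:34583279-34583528, plus strand) held 2, which began at 156 and 122 bases. Ifi203 (chr1:173942493-173942742, minus strand) held 1, at 35 bases. Gbp5 (chr3:142496684-142496933, plus strand) held 1 ISRE at 165 bases and 2 GAS matches at 245 and 52 bases. Cxcl10 (chr5:92348890-92349139, minus strand), the 1 chemokine of the list, held 1 ISRE at 213 bases.
Isg15: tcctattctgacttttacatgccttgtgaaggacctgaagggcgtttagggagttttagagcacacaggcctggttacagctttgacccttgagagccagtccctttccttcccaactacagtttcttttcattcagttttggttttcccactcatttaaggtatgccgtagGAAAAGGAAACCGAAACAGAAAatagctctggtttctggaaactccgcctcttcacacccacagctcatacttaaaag
Ifit3: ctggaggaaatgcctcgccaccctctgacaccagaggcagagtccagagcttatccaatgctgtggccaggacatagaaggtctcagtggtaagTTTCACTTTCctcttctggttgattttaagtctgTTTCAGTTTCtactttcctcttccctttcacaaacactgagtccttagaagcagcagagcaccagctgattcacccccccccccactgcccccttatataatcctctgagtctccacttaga
Ifi203: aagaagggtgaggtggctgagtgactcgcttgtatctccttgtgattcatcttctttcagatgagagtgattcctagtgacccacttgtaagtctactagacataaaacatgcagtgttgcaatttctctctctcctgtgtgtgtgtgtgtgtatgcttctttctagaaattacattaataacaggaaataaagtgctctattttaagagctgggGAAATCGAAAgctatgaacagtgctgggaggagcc
Gbp5: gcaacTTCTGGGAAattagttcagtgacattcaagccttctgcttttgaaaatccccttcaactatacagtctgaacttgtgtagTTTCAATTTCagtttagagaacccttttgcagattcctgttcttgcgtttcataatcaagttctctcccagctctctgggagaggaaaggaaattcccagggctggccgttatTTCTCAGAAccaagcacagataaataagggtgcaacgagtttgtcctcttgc
Cxcl10: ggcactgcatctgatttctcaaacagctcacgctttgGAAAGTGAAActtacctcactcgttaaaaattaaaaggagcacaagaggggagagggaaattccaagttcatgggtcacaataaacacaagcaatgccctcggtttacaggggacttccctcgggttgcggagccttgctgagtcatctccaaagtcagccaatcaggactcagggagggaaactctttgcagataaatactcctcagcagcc

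The genes also lay close together on the chromosomes in the gene order of RefSeq. Gbp2, Gbp3, Gbp5 and Gbp7 were neighbours on chromosome 3, Gbp4 and Gbp6 on chromosome 5, Oas1a, Oas2 and Oas3 on chromosome 5, Ifit1, Ifit2, Ifit3 and Ifit3b on chromosome 19, and Ifi203 and Ifi204 within a run of PYHIN genes on chromosome 1. Such gene families are near-copies of each other (Ifit3 and Ifit3b, Oas1a and Oas1g, the Gbp and the PYHIN genes), and the way the counting shared reads between copies is not given in the sources used here, so the values of single copies are uncertain.

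On the length-scaled FPKM values, the mean level over the 6 libraries ran from 0.582 FPKM for Ifi44 to 203 FPKM for Samhd1. Samhd1, a phosphohydrolase that lowers the pool of deoxynucleotides, ranged from 186 to 221 FPKM over the libraries and lay above every other gene of the list in each of them. Sp100, a nuclear body protein, followed at a mean of 112 FPKM (98.5 to 119) and Bst2 (tetherin), which holds budding viruses at the cell surface, at 93.6 FPKM (75.2 to 119). Their ranges overlapped. Irf7, the transcription factor that amplifies type I interferon production, was at a mean of 38.2 FPKM (24.6 to 47.1) and Ifi204, a PYHIN protein, at 37.6 FPKM (21.4 to 54.2), again with overlapping ranges. By role, means spanned 18.4 to 38.2 FPKM in the transcription factors, 6.23 to 37.6 in the sensors, 3.86 to 25.0 in the OAS family, 2.62 to 20.5 in the immunity-related GTPases, 0.687 to 15.7 in the guanylate-binding proteins and 0.795 to 4.11 in the IFIT family. The IFIT genes, classical targets of type I interferon, were thus among the lowest of the list at rest.

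**Figure D1:**
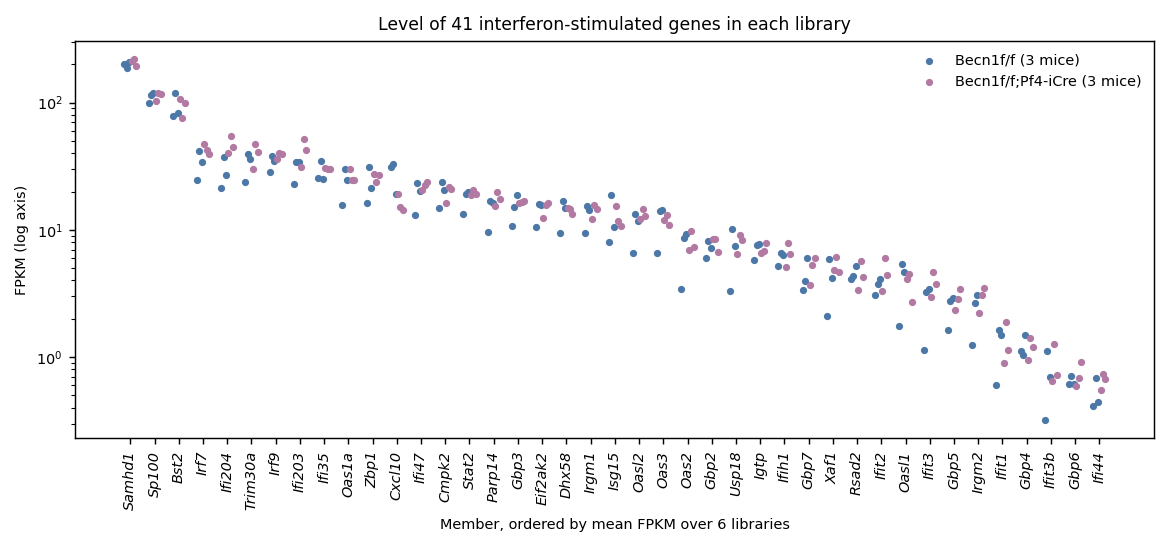
Level of each of the 41 genes in FPKM (log axis), ordered by the mean of 6 libraries, with 1 point per library in blue for Becn1f/f and purple for the libraries labelled Becn1f/f;Pf4-iCre. Samhd1, Sp100 and Bst2 stand above the rest, and the genes with the widest spread, such as Oas2, Usp18 and Ifit3, have a single low blue point.

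That low point came from 1 mouse. Library Becn1f/f 1 was the lowest of the 6 in 33 of 41 genes (80.5%), whereas it was the lowest in 19.6% of all genes tested. The other libraries shared the remaining genes, and none of them was the lowest in more than 4 of the 41. Within its own genotype it was the lowest of 3 in 36 of 41 genes (87.8%), against 38% of all genes. Such shared levels were not limited to this library. Becn1f/f;Pf4-iCre 1 was the lowest of its genotype in 25 of 41 genes (61%, against 37.8% of all genes). Becn1f/f 2 was the highest of its genotype in 28 (68.3%, against 29.7%) and Becn1f/f;Pf4-iCre 2 in 23 (56.1%, against 29.3%). Becn1f/f 1 was singled out after its values were seen, and as 1 mouse it cannot be tested as a group.

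Measured from each gene's own mean of 6 libraries on the log2 CPM scale, the median of the 41 genes was -0.51 in Becn1f/f 1, while the median of all genes tested was 0.0037. The medians of the 41 genes were 0.14 and 0.0085 in Becn1f/f 2 and 3 and 0.0057, 0.18 and 0.11 in the libraries labelled Becn1f/f;Pf4-iCre 1, 2 and 3. These 5 libraries therefore lay close together and across both genotypes. At the other end, Becn1f/f;Pf4-iCre 2 was the highest library in 18 of 41 genes (43.9%, against 15.3% of all genes) and Becn1f/f 2 in 11 (26.8%, against 17.1%).

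**Figure D2:**
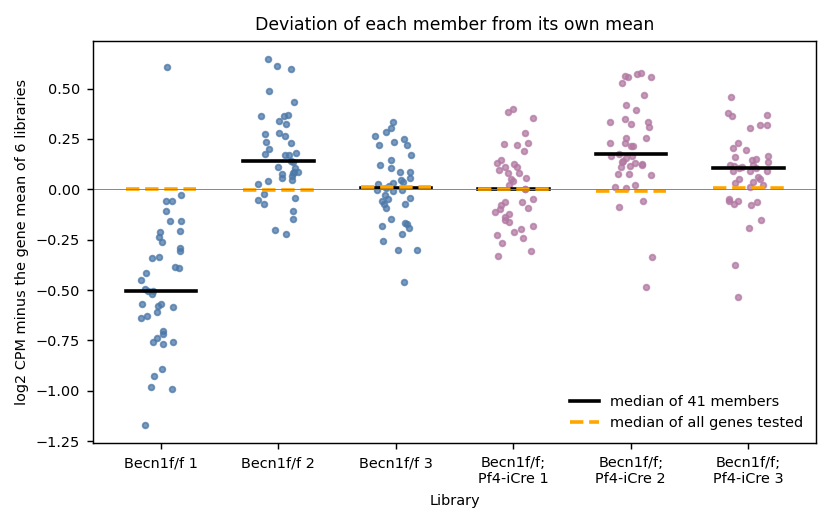
Deviation of each of the 41 genes from its own mean of 6 libraries (log2 CPM), 1 point per gene and library, with the median of the 41 genes as a black bar and the median of all genes tested as an orange dashed bar. Becn1f/f 1 has its median at -0.51, and the other 5 libraries have theirs between 0.0057 and 0.18.

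As a share of the mean of Becn1f/f 2 and 3, the level in Becn1f/f 1 had a median of 67.6% over the 41 genes. It was under 50% in 8 genes: Oasl1 (35.1%), Ifit3 (35.5%), Ifit3b (36.6%), Usp18 (39.5%), Ifit1 (40.8%), Oas2 (41.0%), Irgm2 (45.6%) and Oas3 (48.3%). Oas2 and Oas3 make the oligoadenylates that activate RNase L, and IFIT proteins bind foreign RNA. Usp18 removes ISG15 from proteins and damps receptor signaling, and Irgm2 is a GTPase of vacuole defence. Their role groups had the lowest medians, 38.7% in the IFIT family, 47.7% in the ISG15 system and 48.3% in the OAS family. The medians of the transcription factors (71.6%), the sensors (68.9%), the immunity-related GTPases (65.5%), the guanylate-binding proteins (76.8%) and the other antiviral effectors (77.8%) were nearer to the other mice. Samhd1 (102%) and Cxcl10 (125%) were the 2 genes that were not lower in Becn1f/f 1.

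**Figure D3:**
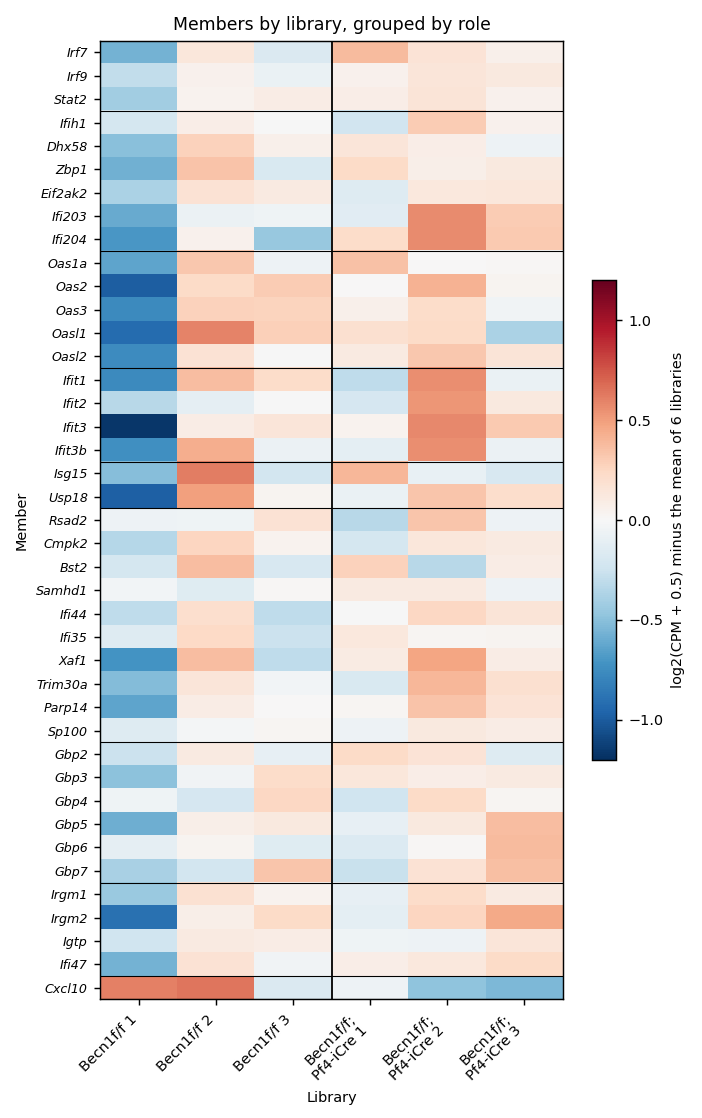
Level of each gene in each library as log2(CPM + 0.5) minus its mean over the 6 libraries, with genes grouped by role (horizontal lines) and the genotypes parted by the vertical line. The column of Becn1f/f 1 is blue in nearly every row, deepest in Ifit3, Usp18 and the OAS family, and Cxcl10 in the last row is red there.

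The median SD of the 41 genes on the log2 scale was 0.37 over the 3 Becn1f/f mice and 0.15 over Becn1f/f 2 and 3, and 0.21 in the libraries labelled Becn1f/f;Pf4-iCre. Over all genes tested these medians were 0.21, 0.14 and 0.17. Summed over the 41 genes, the level was 1836 CPM in Becn1f/f 1 and 2261 to 2601 CPM in the other 5 libraries. Its total of 16496371 counts lay within the range of the others. Markers of other cell types deviated in Becn1f/f 1 too. The median deviation there was -0.54 for macrophage, -0.24 for monocyte, 0.43 for neutrophil and 0.61 for erythroid markers. Deviations of such size were not limited to this library. Monocyte markers were at -0.26 in Becn1f/f 3. In Becn1f/f;Pf4-iCre 1, neutrophil markers were at -0.39 and erythroid markers at -0.61. The part of these markers in the low interferon-stimulated genes of Becn1f/f 1 was not tested.

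Between genotypes, 38 of 41 genes had a log2 fold change above 0 and 3 (Cxcl10, Oasl1 and Rsad2) below it, against 45.5% of all genes tested above 0. The median log2 fold change of the 41 genes was 0.18, and that of all genes tested was -0.02. Standard errors ran from 0.13 to 0.42, and in 23 of 41 genes the difference was smaller than its own standard error. The thresholds used for differentially expressed genes (DEGs), at least 1.5-fold with P under 0.05 before adjustment, were passed by 2 genes (4.88%, against 2.3% of all genes tested): Ifi204 was higher (1.36% of all genes were) and Cxcl10 lower (0.938% were). An adjusted p under 0.05 from edgeR was reached by 0 of the 41 genes (0.0408% of all genes), and an unadjusted P under 0.05 by 3 (6.31% of all genes). These were Ifi203 and Ifi204 upward (3.92% of all genes) and Cxcl10 downward (2.39%). DESeq2 gave 1 gene, Ifi204, with an adjusted p under 0.05, against 71 of about 16400 genes in its fit. The groups did not overlap in 1 gene, Ifi204, or 2.44%, against 10.6% of all genes tested (5.42% with the libraries labelled Becn1f/f;Pf4-iCre higher, as here, and 5.18% with them lower).

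Without Becn1f/f 1, 24 of 41 genes were higher and 17 lower, and the median log2 fold change was 0.04, against -0.0060 for all genes. Only Cxcl10 then passed the DEG thresholds, which 3.21% of all genes did in that fit. The OAS family went from 4 of 5 genes higher with a median of 0.21 to 1 of 5 with a median of -0.10, and both genes of the ISG15 system turned lower, with a median of -0.15 in place of 0.11. The median fell from 0.30 to 0.09 in the IFIT family, from 0.20 to 0.03 in the immunity-related GTPases, from 0.18 to 0.05 in the guanylate-binding proteins and from 0.17 to 0.04 in the sensors. The 3 transcription factors stayed above 0, with a median of 0.12 in place of 0.20.

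**Figure D4:**
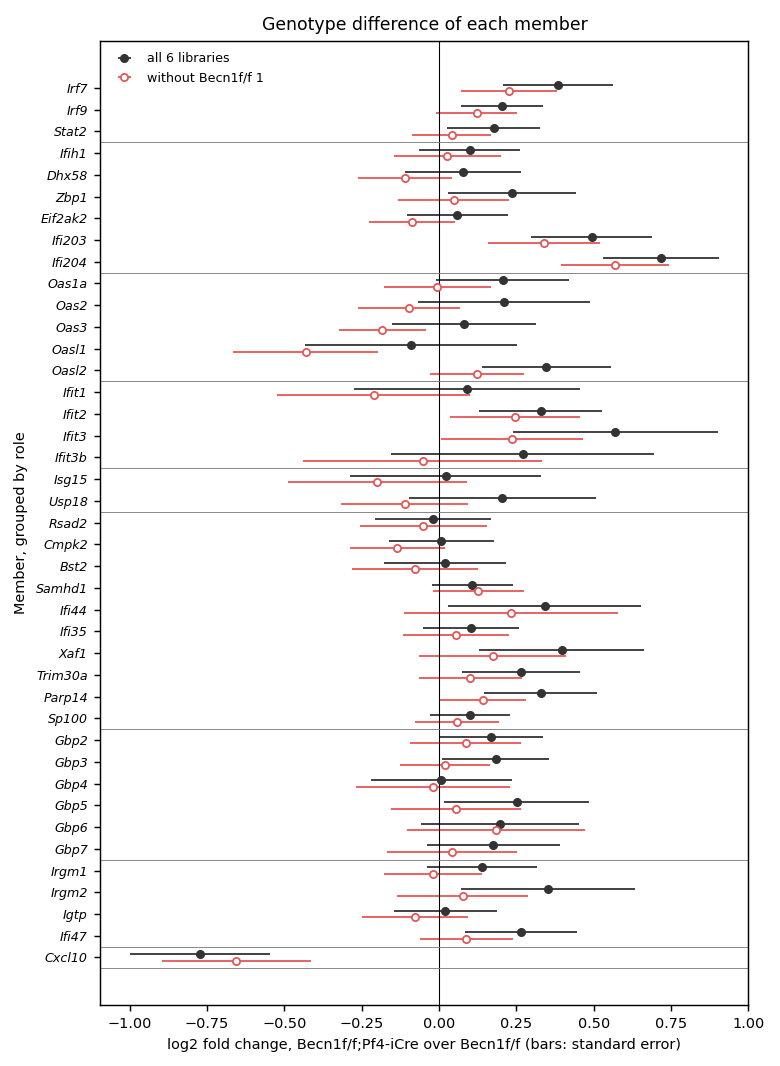
Log2 fold change of each gene between the libraries labelled Becn1f/f;Pf4-iCre and Becn1f/f, with the standard error, over all 6 libraries (filled) and without Becn1f/f 1 (open), grouped by role. Most open points lie to the left of their filled points and around 0, with Ifi204 at 0.57 and Cxcl10 at -0.66 furthest from 0.

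Among the transcription factors, Irf7 was at 37.5, 61.4 and 49.6 CPM in Becn1f/f 1, 2 and 3 and at 72.9, 62.6 and 58.3 CPM in the libraries labelled Becn1f/f;Pf4-iCre 1, 2 and 3. The lowest of the latter was below Becn1f/f 2, so the groups overlapped, and the log2 fold change was 0.38 (standard error 0.18), or 0.23 without Becn1f/f 1. Irf9 and Stat2, parts of the complex that binds the ISRE, had log2 fold changes of 0.20 and 0.18, or 0.12 and 0.04 without that library.

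Of the nucleic acid sensors, Ifi204 belongs to the PYHIN proteins, which bind DNA and regulate transcription. It was at 43.8, 74.0 and 51.9 CPM in Becn1f/f 1, 2 and 3 and at 83.4, 107 and 89.3 CPM in the libraries labelled Becn1f/f;Pf4-iCre. All 3 of the latter lay above all 3 of the former, at 93.1 ± 12.0 against 56.6 ± 15.6 CPM (SD, n = 3 each). On the log2 scale they were higher by 0.72 (standard error 0.19). Without Becn1f/f 1 it was 0.57, just under the DEG threshold of 0.585. Ifi203 of the same family had a log2 fold change of 0.49, or 0.34 without that library. The other sensors had smaller values, with 0.24 for Zbp1, which senses Z-form nucleic acid, 0.10 for Ifih1 (MDA5) and 0.08 for Dhx58 (LGP2), which sense viral RNA, and 0.06 for Eif2ak2 (PKR), the kinase that halts translation on double-stranded RNA. Without Becn1f/f 1 these were 0.05, 0.03, -0.11 and -0.09, so that Dhx58 and Eif2ak2 turned below 0.

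In the OAS family, Oasl2 was at 16.6, 32.0 and 28.1 CPM in Becn1f/f 1, 2 and 3 and at 30.6, 35.6 and 31.5 CPM in the libraries labelled Becn1f/f;Pf4-iCre. Only Becn1f/f 1 lay well outside the others, and the log2 fold change was 0.35 (standard error 0.21), or 0.12 without that library. Oas1a, Oas2 and Oas3 had log2 fold changes of 0.21, 0.21 and 0.08, and Oasl1 of -0.09 (standard error 0.34). All 4 lay below 0 without Becn1f/f 1, at -0.0061, -0.10, -0.18 and -0.43.

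The IFIT gene with the largest difference, Ifit3, was at 1.94, 5.35 and 5.59 CPM in Becn1f/f 1, 2 and 3 and at 5.15, 7.72 and 6.35 CPM in the libraries labelled Becn1f/f;Pf4-iCre. Becn1f/f 1 was again the low one, while Becn1f/f 2 and 3 lay above the lowest library of the other group. The log2 fold change was 0.57 (standard error 0.33), the second largest upward difference of the list, and 0.24 without Becn1f/f 1. Ifit2, Ifit3b and Ifit1 had log2 fold changes of 0.33, 0.27 and 0.09, or 0.25, -0.05 and -0.21 without that library.

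In the ISG15 system, Usp18 was at 4.95, 14.6 and 10.5 CPM in Becn1f/f 1, 2 and 3 and at 9.71, 13.1 and 11.9 CPM in the libraries labelled Becn1f/f;Pf4-iCre. Both ends of the range were Becn1f/f mice, and the log2 fold change of 0.20 (standard error 0.30) turned to -0.11 without Becn1f/f 1. Isg15 itself, the ubiquitin-like modifier, showed a log2 fold change of 0.02 (standard error 0.31), or -0.20 without that library.

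The 3 most abundant genes belonged to the other antiviral effectors. Samhd1 was at 655, 604 and 675 CPM in Becn1f/f 1, 2 and 3 and at 721, 721 and 641 CPM in the libraries labelled Becn1f/f;Pf4-iCre. Sp100 was at 226, 249 and 257 CPM and at 241, 274 and 269 CPM in the same order. In both genes the groups overlapped and Becn1f/f 1 lay close to the others, with log2 fold changes of 0.11 (standard error 0.13) and 0.10 (standard error 0.13), or 0.13 and 0.06 without it. Bst2 was at 39.0, 58.7 and 39.6 CPM and at 55.0, 35.8 and 48.2 CPM. Its groups overlapped throughout, with a log2 fold change of 0.02 (standard error 0.20), or -0.08 without Becn1f/f 1.

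The largest difference among these effectors was that of Xaf1, a binding partner of the apoptosis inhibitor XIAP. It was at 4.70, 10.5 and 6.43 CPM in Becn1f/f 1, 2 and 3 and at 8.63, 11.3 and 8.61 CPM in the libraries labelled Becn1f/f;Pf4-iCre. Becn1f/f 2 lay among the latter, and the log2 fold change was 0.40 (standard error 0.27), or 0.17 without Becn1f/f 1. Ifi44, Parp14, Trim30a and Ifi35 had log2 fold changes of 0.34, 0.33, 0.26 and 0.10, or 0.23, 0.14, 0.10 and 0.06 without that library. Rsad2 (viperin), which makes a chain-terminating nucleotide, was at -0.02 (standard error 0.19), or -0.05, and its neighbour Cmpk2, a nucleotide kinase, at 0.0068, or -0.13.

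Guanylate-binding proteins and immunity-related GTPases, both strongly induced by interferon gamma, attack the vacuoles of intracellular pathogens. Gbp5 was at 4.51, 7.42 and 7.68 CPM in Becn1f/f 1, 2 and 3 and at 6.53, 7.66 and 9.21 CPM in the libraries labelled Becn1f/f;Pf4-iCre. Irgm2 was at 4.08, 8.40 and 9.48 CPM and at 7.31, 9.65 and 11.2 CPM in the same order. In both genes Becn1f/f 1 was the lowest library and the other 5 overlapped. The log2 fold change was 0.25 (standard error 0.23) for Gbp5 and 0.35 (standard error 0.28) for Irgm2, or 0.05 and 0.08 without Becn1f/f 1. The other genes of these 2 groups had log2 fold changes of 0.0073 (Gbp4) to 0.27 (Ifi47), or of -0.08 (Igtp) to 0.19 (Gbp6) without it.

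Cxcl10, a chemokine that draws lymphocytes bearing Cxcr3, went the other way. It was at 25.1, 25.8 and 14.5 CPM in Becn1f/f 1, 2 and 3 and at 15.6, 11.5 and 11.1 CPM in the libraries labelled Becn1f/f;Pf4-iCre. Becn1f/f 1 and 2 were high, while Becn1f/f 3 lay below Becn1f/f;Pf4-iCre 1, so that the groups overlapped. The log2 fold change was -0.77 (standard error 0.23), and -0.66 without Becn1f/f 1.

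The rest of the pathway was read from 4 lists of 176 further genes, of which 148 were in the table and 141 passed the filter. Of these, 91 had a log2 fold change above 0 and 50 below it, with a median of 0.09, and 72 (51.1%) had their lowest level in Becn1f/f 1. Without that library 81 lay above 0 and 60 below, with a median of 0.04. The DEG thresholds were passed by 10 genes (7.09%, against 2.3% of all genes tested), 9 of them higher and 1 lower. None had an adjusted p under 0.05 in edgeR, where 21 of 141 had an unadjusted P under 0.05 (6.31% of all genes tested did). An adjusted p under 0.05 from DESeq2 was reached by 4 (Ifi213, Ifi207, Tlr7 and Ms4a6b), against 71 of about 16400 genes in its fit. These lists were also chosen with earlier results known. ISRE matches were present in 32.5% of the 117 genes with a window.

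Of the interferons themselves, only Ifnb1, Ifnk, Ifnz and Ifng were in the table, and none passed the filter. Ifnb1, the type I interferon made by most cell types, had 1 count in Becn1f/f 3 and in Becn1f/f;Pf4-iCre 1 and 0 in the other 4 libraries. Ifng, made by T and NK cells, had 9, 6 and 10 counts in Becn1f/f 1, 2 and 3 and 3, 13 and 11 in the libraries labelled Becn1f/f;Pf4-iCre. Becn1f/f 1 was thus within the range of the others for Ifng, and no library had more than 3 counts of Ifnb1, Ifnk or Ifnz. The other interferon genes were not analysed here.

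Among receptors, kinases, STATs and regulators, 17 of 21 genes were higher, at a median of 0.10 on the log2 scale, and 0 passed the DEG thresholds. With Becn1f/f 1 left out, 16 of 21 were higher, with a median of 0.12. An unadjusted P under 0.05 was reached by 2 of them. Ifngr1, the ligand-binding chain of the interferon gamma receptor, was at 231, 225 and 212 CPM in Becn1f/f 1, 2 and 3 and at 293, 307 and 259 CPM in the libraries labelled Becn1f/f;Pf4-iCre, without overlap, and its log2 fold change of 0.36 (standard error 0.13) had an adjusted p of 0.59 in edgeR and was 0.40 without Becn1f/f 1. Irf2, which restrains the response, showed a log2 fold change of 0.36 (standard error 0.13, edgeR adjusted p = 0.60), or 0.33 without that library. The other receptor chains were nearly level, with log2 fold changes of 0.10 for Ifnar1, 0.03 for Ifnar2 and 0.05 for Ifngr2, or 0.03, 0.05 and 0.0015 without it.

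Of 17 tested genes that sense nucleic acid upstream of interferon, 2 passed the DEG thresholds, both upward (1.36% of all genes tested did so). Tlr7, the endosomal receptor for single-stranded RNA, was at 40.9, 37.7 and 30.5 CPM in Becn1f/f 1, 2 and 3 and at 55.1, 72.6 and 60.2 CPM in the libraries labelled Becn1f/f;Pf4-iCre. The groups did not overlap, and Becn1f/f 1 was the highest of its genotype. Its log2 fold change was 0.79 (standard error 0.16, edgeR adjusted p = 0.13, DESeq2 adjusted p = 0.0030), and it was 0.88 without Becn1f/f 1. Trim25, a ubiquitin ligase that activates the RNA sensor RIG-I, showed a log2 fold change of 0.62 (standard error 0.20, edgeR adjusted p = 0.50), or 0.67 without that library, and the groups overlapped.

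Of 103 tested further interferon-induced genes, 64 were higher and 39 lower, at a median of 0.09 on the log2 scale. Leaving out Becn1f/f 1 gave 56 higher and 47 lower, at a median of 0.03. The DEG thresholds were passed by 7 of them upward (Ifi206, Ifi207, Ifi209, Ifi211, Ifi213, Phf11d and Slfn5) and by 1 downward (Ifit1bl2, log2 fold change -1.06, standard error 0.46, or -1.19 without Becn1f/f 1). Upward calls made up 1.36% of all genes tested and downward calls 0.938%. Slfn5, a Schlafen family regulator, was at 47.8, 108 and 96.0 CPM in Becn1f/f 1, 2 and 3 and at 122, 184 and 149 CPM in the libraries labelled Becn1f/f;Pf4-iCre. The groups did not overlap and Becn1f/f 1 was far below its genotype, with a log2 fold change of 0.85 (standard error 0.26, edgeR adjusted p = 0.45), or 0.57 without that library. Gvin1, an interferon-inducible giant GTPase (0.51), Epsti1 (0.52), Ms4a4c (0.54), Ms4a6b (0.57), Rnf213 (0.40), Slfn8 (0.46), Trim12c (0.46) and Mndal (0.39) had log2 fold changes above 0 at an unadjusted P under 0.05, and Ifi27 (-0.31) below 0. With that library left out these lay at 0.45, 0.43, 0.59, 0.53, 0.32, 0.31, 0.58, 0.31 and -0.32.

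Of the 7 genes past the DEG thresholds upward, 5 belong to the same PYHIN run on chromosome 1 as Ifi203 and Ifi204. Mndal lies in this run too. The family was set apart after its values were seen, so it was not tested as a family. Adjusted p values of its single genes come from the fits over all genes. All 9 other tested genes of the run were higher, at a median of 0.61 on the log2 scale, and the groups did not overlap in 5 of them. Over all genes tested, 45.5% were higher and 5.42% were higher without overlap. Ifi213 was at 4.95, 10.5 and 11.1 CPM in Becn1f/f 1, 2 and 3 and at 19.1, 24.8 and 19.5 CPM in the libraries labelled Becn1f/f;Pf4-iCre. Ifi207 was at 57.0, 76.6 and 53.0 CPM and at 116, 107 and 97.8 CPM in the same order. In both genes the groups were clearly apart, in Ifi207 with no low value in Becn1f/f 1.

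The log2 fold change was 1.26 (standard error 0.26) for Ifi213 and 0.78 (standard error 0.16) for Ifi207, each with an adjusted p of 0.13 in edgeR. Their adjusted p values in DESeq2 were 0.00052 and 0.0026. Without Becn1f/f 1, 8 of 9 genes of the run were higher with a median of 0.42, and Ifi213 and Ifi207 were at 0.98 and 0.73. Aim2, which starts the inflammasome on cytosolic DNA, lay at the end of the run and showed a log2 fold change of 0.15 (standard error 0.14), or 0.25 without that library. Without the PYHIN run, 82 of 132 other pathway genes were higher, with a median of 0.08. The DEG thresholds were then passed by 4 genes upward and 1 downward (3.79%, against 2.3% of all genes tested).

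**Figure D5:**
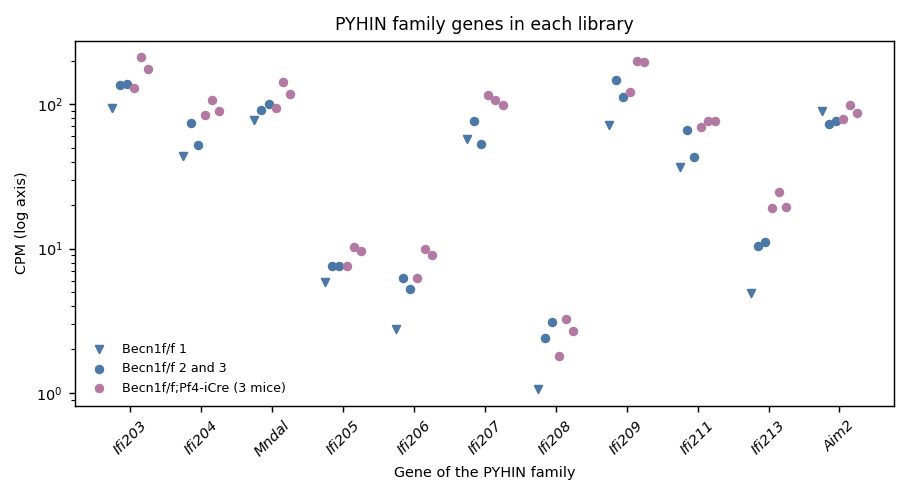
Level of 11 PYHIN family genes in each library in CPM (log axis), with Becn1f/f 1 as a triangle, Becn1f/f 2 and 3 as blue circles and the libraries labelled Becn1f/f;Pf4-iCre in purple. In Ifi204, Ifi205, Ifi206, Ifi207, Ifi211 and Ifi213 all purple points lie above all blue points, in Ifi205 and Ifi206 by very little, whereas in Aim2 the points mix.

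Markers of other cell types also differed between genotypes. Of 10 monocyte markers 9 were higher, at a median of 0.49 on the log2 scale, and their sum ranged from 12755 to 14995 CPM in Becn1f/f mice and from 16417 to 20529 CPM in the libraries labelled Becn1f/f;Pf4-iCre. Of 13 tested macrophage markers 11 were higher (median 0.32, sums of 854 to 912 and 922 to 1114 CPM). Neutrophil markers were lower in 13 of 14 (median -0.43, sums of 12019 to 17138 and 9341 to 12588 CPM) and erythroid markers in 14 of 14 (median -0.64, sums of 682 to 1015 and 531 to 670 CPM). The markers of plasmacytoid dendritic cells, which make much type I interferon, had a median of -0.05, with sums of 406 to 418 and 386 to 438 CPM. MK and platelet markers were higher in 6 of 17 (median -0.10), B cell markers in 1 of 11 (median -0.22) and T and NK cell markers in 5 of 9 (median 0.0072). The DEG thresholds were passed by 50% of erythroid and 23.1% of macrophage markers, against 2.3% of all genes tested. In the monocyte, neutrophil and B cell lists 1 marker each passed. In the plasmacytoid dendritic cell list and the T and NK cell list 0 did. Of the 17 MK and platelet markers, 1 passed these thresholds. This was Pf4, lower by a log2 fold change of -1.01 (standard error 0.29, edgeR adjusted p = 0.42) without overlap of the groups. Itga2b was at -0.15 (standard error 0.14). Without Becn1f/f 1 the medians were 0.41 for monocyte, 0.27 for macrophage, -0.29 for neutrophil, -0.45 for erythroid, -0.12 for plasmacytoid dendritic cell, -0.03 for MK and platelet, -0.19 for B cell and 0.07 for T and NK cell markers. No list had a marker at 0 in all libraries, and Ms4a4c stood in both the monocyte list and the list of further interferon-induced genes. Interferon-stimulated genes are expressed in monocytes and macrophages too, and the part of these cells in the differences of the 41 genes was not tested.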

How the data were processed

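RNA of cells labelled MKs from 6 mice was measured, with genotype and replicate number from the labels. The authors filtered reads and mapped them with HISAT; the submitters' processing notes also name Bowtie2 and GRCm39, and the counting tool is not given in the sources used here. The deposited values are estimated counts, which carry no normalization, and FPKM, scaled by the authors for length and library size. Left out were 16 per-sample columns, 4 of them of a library that matches no sample, and 8 columns of group means.

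Counts were rounded, filtered (filterByExpr), scaled (TMM) and tested in R 4.3.3 by the quasi-likelihood test of edgeR 4.0.16, with genotype only and Benjamini-Hochberg adjustment over 12256 genes. Log2 CPM used a prior count of 2, and a standard error is a log2 fold change divided by the root of F. An exact two-sided test of 3 mice against 3 cannot go below 0.1. The steps were tested on simulated data. Alternatives were DESeq2 1.42.0, other normalizations and filters, limma 3.58.1 on FPKM, a replicate block, each library left out and, added after the data were examined, a GC content and length correction.

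The genes and lists were chosen with earlier results of these data known. Values in every library are given for genes past 1.5-fold, the 5 with the highest mean FPKM and the largest difference of each role group; pathway genes were named at an unadjusted P under 0.05, with receptors and ligands, and 1 gene under this rule is not reported here. Promoter windows are on GRCm38.p6, a build other than that of the files.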

Additional observations from a re-analysis of the deposited data

How the results depend on the processing

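The median log2 fold change of the 41 genes was 0.04 without Becn1f/f 1 and 0.13 to 0.29 without each other library, and 0.14 to 0.19 under the other alternatives. Of the 12 genes given library by library, Usp18 turned below 0 without Becn1f/f 1 (-0.11) and Bst2 without Becn1f/f 1 (-0.08), Becn1f/f 3 (-0.08), Becn1f/f;Pf4-iCre 1 (-0.12) or Becn1f/f;Pf4-iCre 3 (-0.0093); the other 10 kept their direction under every alternative run. The number of the 41 genes above 0 was 33 to 38 under all alternatives but 1, and 24 without Becn1f/f 1. The count of the 41 genes past the DEG thresholds was 1 to 4 when each library was left out (1.8% to 3.3% of all genes). It was 1 (Cxcl10) without Becn1f/f 1 (3.21% of all genes) and 4 (with Ifi203 and Ifit3) without Becn1f/f 3 (2.76%). At an adjusted p under 0.05 the count was 0 in each of these edgeR fits and 1 with DESeq2. Other pathway genes past the thresholds numbered 5 to 17 when each library was left out. There were 6 without Becn1f/f 1, 17 without Becn1f/f 2 (3.3% of all genes) and 5 without Becn1f/f;Pf4-iCre 2 (1.8%). With limma on log2(FPKM + 1) 6 passed (1.05% of all genes). At an adjusted p under 0.05 there were 0 in these fits and 4 with DESeq2. Over all genes there were 282 DEGs, 225 to 410 when each library was left out, 129 with limma on log2(FPKM + 1), where the share upward was 70.5% in place of 59.2%, and 5 at an adjusted p under 0.05. The latter count was 71 with DESeq2, 23 with no filter, 8 with upper-quartile normalization, 1 with limma on log2(FPKM + 1), 27 without Becn1f/f 1, 1 without Becn1f/f 2, 0 without Becn1f/f;Pf4-iCre 1 (where 343 genes were DEGs at an unadjusted P) and 2 without Becn1f/f;Pf4-iCre 2. Ifnar2 (0.03) turned to -0.021 with limma on log2(FPKM + 1), to -0.021 with limma on log2(FPKM + 0.1), and ran from -0.0066 to 0.062 when each library was left out. The cause of these changes was not tested. Same-numbered mice are different animals, and their deviations correlated at 0.07, -0.28 and 0.20. With 3 mice per genotype these values cannot decide whether same-numbered libraries shared a batch. With the replicate number as a block there were 296 DEGs (2.4% of all genes), among them 3 of the 41 genes (with Ifit3) and 10 other pathway genes. The median was then 0.19. In that fit 19 genes had an adjusted p under 0.05, 0 of them of the 41. Of the other pathway genes 2 did, Ifi213 (edgeR adjusted p = 0.025) and Slfn5 (0.047). Across genes, which are not independent replicates, log2 fold changes fell with GC content (Spearman rho -0.34). With GC content and length corrected the median was 0.18, with 35 of 41 genes above 0. The thresholds were then passed by 2 of the 41 and 7 other pathway genes (2.13% of all genes). Genes with few counts were the least precise, such as Ifit3b (standard error 0.42) and Ifit1 (0.37).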
